A study of Mus musculus with 4 samples.

Results

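Smooth muscle cells and myofibroblasts pull on their surroundings with actin filaments, myosin motors and the proteins that hold them together, and 10 genes of this machinery were followed here in mouse lung. The genes are Acta2, Actg2, Myh11, Myl9, Tpm1, Tpm2, Cnn1, Tagln, Lmod1 and Des. They were chosen by name, with earlier results of these data known, and matched by gene symbol. All 10 were found among the 17691 named genes of the deposited table. RNA came from whole lungs of C57BL/6 mice, wild type and 6 to 8 weeks old, that had received PBS, a buffer, or bleomycin, a drug that breaks DNA and is used to bring on lung injury and fibrosis. Both were given through the nose for 10 days, and neither group carried any other allele or agent according to the labels. Each group held 2 libraries, which is the number analysed here although the design text speaks of triplicates.

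Contraction of smooth muscle begins when calcium and calmodulin switch on myosin light chain kinase, which phosphorylates the regulatory light chain of myosin. In resting lung, the smooth muscle of airways and vessels holds most of this machinery. After injury, fibroblasts can turn into myofibroblasts, cells that lay down matrix and build actin stress fibres containing smooth muscle actin. Serum response factor, SRF, with its partners myocardin and the myocardin-related factors, switches on many contractile genes by binding a DNA motif called the CArG box.

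Values are FPKM, fragment counts divided by the length of the transcript and by the size of the library. Defining lung genes were present in every library, with the alveolar surfactant gene Sftpc at 7913.38 to 12788.46 FPKM. Ager was at 1883.14 to 2833.82 FPKM, and the groups overlapped for both. Scgb1a1 was at 54414.52 and 41165.08 FPKM with PBS and at 18856.56 and 19750.94 FPKM with bleomycin. That difference did not pass limma, the test described below (adjusted p = 0.131). Its bearing on the FPKM of other genes was not tested. The low values of short genes gave an estimated depth of 17000000 and 17100000 fragments with PBS and of 17200000 and 17800000 with bleomycin. At these depths Lmod1, lowest of the 10 in FPKM, rested on about 240 to 280 fragments per library. Its counting error was 6.5% in the lowest library. Actg2, on about 220 to 920 fragments, had the largest such error of the 10, 6.7%. Tpm1 rested on about 4900 to 10000. The groups also differed in ways that touch every comparison below. The Y-linked gene Eif2s3y stood at 26.43 and 28.86 FPKM with PBS and was listed at 0 in both bleomycin libraries, so treatment and sex cannot be told apart. The liver transcript Alb stood at 14.43 and 14.23 FPKM with PBS and at 1.01 and 0.66 FPKM with bleomycin, and the part of such differences in the results was not tested. The labels do not say whether the libraries are from separate or pooled animals, so p-values speak only to the spread of these libraries, some of which may be technical. In whole tissue, a change in the number of cells of a type and a change in RNA per cell cannot be told apart.

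Of the 10 contractile genes, 4 rose with bleomycin, none fell and 6 did not pass the test. The 4 were both smooth muscle actins, Acta2 and Actg2, and both tropomyosins, Tpm1 and Tpm2. The smooth muscle myosin heavy chain Myh11, its light chain Myl9, calponin Cnn1 and leiomodin Lmod1 had log2 changes between -0.30 and 0.20. The test was limma on log2(FPKM + 1), fitted to the 12986 genes whose mean reached 1 FPKM, with Benjamini-Hochberg adjusted p-values and a threshold of 0.05. By the same test, 8.59% of all genes tested rose and 7.69% fell. At an unadjusted p under 0.05, 6 of the 10 genes were higher and 0 lower, against 17.2% and 18.1% of all genes tested. The median log2 change was 0.57 over the 10 genes and -0.02 over all genes tested. Without a library of the PBS group, the spread comes from the bleomycin pair alone, and 0 of the 10 and 0 of all 12986 genes passed limma. At an unadjusted p under 0.05, 5 of the 10 were then higher without PBS replicate 1 and 4 without PBS replicate 2, where 8.62% and 8.8% of all genes were. With either bleomycin library left out, the spread comes from the PBS pair alone, whose median absolute log2 difference over all genes was 0.09, against 0.16 for the bleomycin pair. Of the 10 genes 6 then rose, the additional ones being Tagln and Des, while the share of all genes that rose was 18.0% without bleomycin replicate 1 and 18.5% without bleomycin replicate 2.

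**Figure D1:**
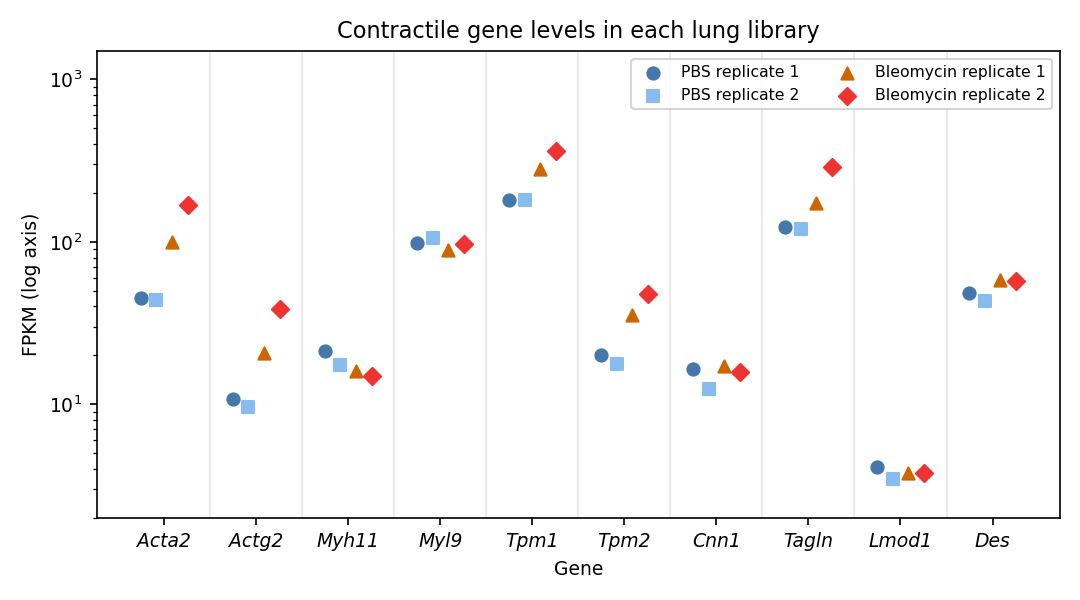
FPKM (log axis) of the 10 contractile genes, 1 point per library, with blue for PBS and orange or red for bleomycin. Both bleomycin points of Acta2, Actg2, Tpm1, Tpm2, Tagln and Des lie above both PBS points, those of Lmod1 lie between its PBS points, and those of Cnn1 overlap with the PBS points.

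The actins were the most changed. Acta2 encodes alpha smooth muscle actin, the filament protein by which myofibroblasts are usually recognised (gene 11475, GRCm38.p6 chromosome 19, 34240336 to 34255585). It was at 45.33 and 43.95 FPKM with PBS and at 99.78 and 168.74 FPKM with bleomycin. Both bleomycin libraries were far above both PBS libraries, and bleomycin replicate 2 was the higher of the pair. The log2 change was 1.52 ± 0.26 (SE, n = 2 libraries per group throughout), a 2.87-fold rise with an adjusted p of 0.0252 by limma.

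Actg2 encodes gamma smooth muscle actin, the isoform that prevails in gut muscle (gene 11468, chromosome 6, 83512909 to 83536251). It was at 10.81 and 9.65 FPKM with PBS and at 20.76 and 38.57 FPKM with bleomycin. The groups did not overlap, and bleomycin replicate 2 was again the higher. Its log2 change was 1.39 ± 0.29 (adjusted p = 0.042 by limma). Without a variance trend in the fit the adjusted p was 0.05 and Actg2 was not called. Acta2 stood at 4.19 and 4.55 times the FPKM of Actg2 with PBS and at 4.81 and 4.37 times with bleomycin, so the proportion between the isoforms overlapped between the groups while both levels rose. None of the 1284 windows of 50 bases in the Actg2 transcript occurs in a transcript of another gene, and 7 of 1986 windows of Acta2 do, shared with Actg1 among others.

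The tropomyosins, coiled coils that lie along the actin filament and govern its access to myosin, rose as well. Tpm2 (gene 22004, chromosome 4, 43513726 to 43523583) was at 20.08 and 17.63 FPKM with PBS and at 35.54 and 47.89 FPKM with bleomycin. Its log2 change was 1.09 ± 0.17 (adjusted p = 0.0205 by limma), and it is the gene among the 10 with the smallest p. Tpm1 (gene 22003, chromosome 9, 67022590 to 67049672) was the most abundant of the 10, at 180.75 and 179.83 FPKM with PBS and at 278.74 and 362.74 FPKM with bleomycin. The PBS values were almost the same, both bleomycin values lay above them, and the log2 change was 0.82 ± 0.15 (adjusted p = 0.0307 by limma). The Tpm1 value covers 10 RefSeq transcripts and the Tpm2 value 3, among them forms made outside muscle, and the table does not separate them. Tpm1 exceeded Tpm2 by 9.0 and 10.2 times with PBS and by 7.84 and 7.57 times with bleomycin.

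Among the actin-binding proteins the values were mixed. Tagln encodes transgelin, also called SM22, an early marker of smooth muscle (gene 21345, chromosome 9, 45929628 to 45936058). It was at 123.24 and 119.33 FPKM with PBS and at 172.43 and 287.75 FPKM with bleomycin, and the groups did not overlap. The gap between the bleomycin libraries was wide against the gap between the groups, and the log2 change of 0.87 ± 0.25 did not pass (adjusted p = 0.0824 by limma). Weighting the libraries by the spread of their group gave an adjusted p of 0.0373 for the same change. Exons of Pcsk7 and of an antisense gene, Gm48529, lie over Tagln on the other strand. Whether the authors' counting used strand is not given in the sources used here, so the Tagln value is uncertain to that extent. Gm48529 was not among the named genes of the deposited table. Pcsk7 itself was at 13.27 and 14.87 FPKM with PBS and at 13.16 and 13.07 FPKM with bleomycin.

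Cnn1 encodes calponin, which binds actin and restrains the myosin motor and is a mark of mature smooth muscle (gene 12797, chromosome 9, 22099221 to 22109221). It was at 16.43 and 12.41 FPKM with PBS and at 17.18 and 15.88 FPKM with bleomycin. The groups overlapped, and the log2 change was 0.20 ± 0.15 (adjusted p = 0.4 by limma). Lmod1 encodes leiomodin, which starts new actin filaments in smooth muscle (gene 93689, chromosome 1, 135324813 to 135368065). It was at 4.14 and 3.49 FPKM with PBS and at 3.8 and 3.78 FPKM with bleomycin, so both bleomycin values lay between the PBS values. Its log2 change was -0.0042 ± 0.12 (adjusted p = 0.986 by limma), with a sign that turns under other scalings.

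The smooth muscle myosin genes did not pass in either direction. Myh11 encodes the smooth muscle myosin heavy chain, the motor itself and usually taken as the most specific marker of smooth muscle among the 10 (gene 17880, chromosome 16, 14194527 to 14292188). It was at 21.33 and 17.34 FPKM with PBS and at 15.95 and 14.93 FPKM with bleomycin. Both bleomycin libraries were below both PBS libraries by a small margin, and the log2 change was -0.30 ± 0.12 (adjusted p = 0.162 by limma). Of 6585 windows of 50 bases in its transcripts, 26 are shared with the nonmuscle gene Myh9. Myl9, the regulatory light chain that the kinase phosphorylates (gene 98932, chromosome 2, 156775408 to 156781657), was at 97.95 and 105.84 FPKM with PBS and at 88.93 and 96.46 FPKM with bleomycin. The values of the groups nearly touched, and the log2 change was -0.14 ± 0.09 (adjusted p = 0.351 by limma).

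Des encodes desmin, the intermediate filament that links contractile units in all muscle (gene 13346, chromosome 1, 75360292 to 75368579). It was at 48.62 and 42.95 FPKM with PBS and at 58.42 and 57.08 FPKM with bleomycin. The groups did not overlap, the bleomycin libraries were close together, and the log2 change was 0.33 ± 0.09 (adjusted p = 0.0786 by limma). Desmin is also made by heart muscle, which in mice lines the pulmonary veins. Of 15 heart muscle markers, 10 were below 1 FPKM in every library, none was at 0 in every library, and their summed level was 29.3 and 25.2 FPKM with PBS and at 17.0 and 23.4 FPKM with bleomycin. The most abundant of them, Tnnt2 and Myl4, did not exceed 9.88 FPKM in any library. The heart actin Actc1, not among the 15 but on the list of airway smooth muscle markers below, was higher, at 10.51 to 23.86 FPKM. Of the 5 heart muscle markers that could be tested, 0 rose by limma and 1, Tnnc1, fell, beside 8.59% and 7.69% of all genes. Before adjustment, 0 were higher and 2 lower at a p under 0.05 by limma, against 17.2% and 18.1% of all genes. An antisense gene, Gm15179, lies over exons of Des and was not among the named genes of the deposited table, so it has no value here.

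**Figure D2:**
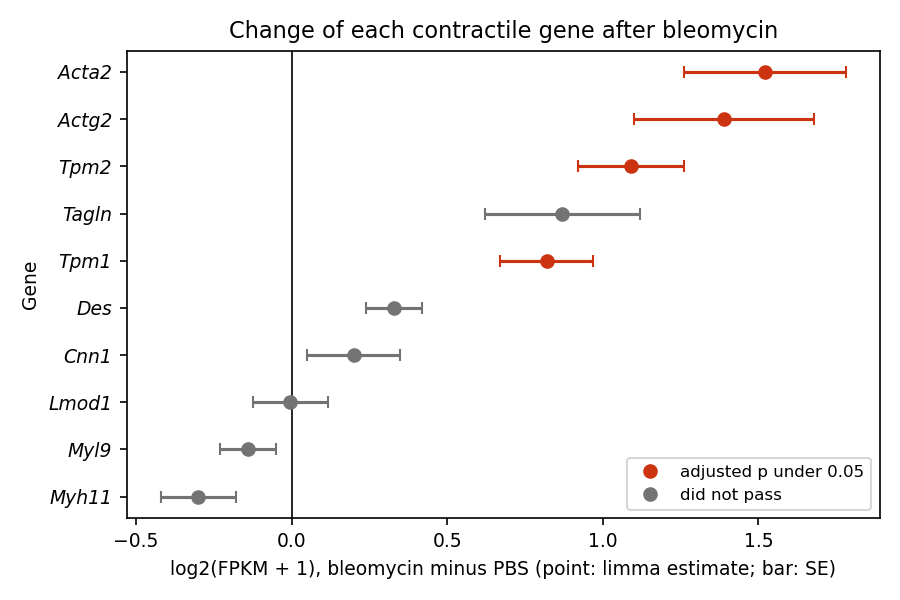
Log2 change of each contractile gene with bleomycin on the log2(FPKM + 1) scale, as the limma estimate with its SE, ordered by size. The 4 genes past an adjusted p of 0.05, in red, are Acta2, Actg2, Tpm2 and Tpm1, and Myh11 stands lowest at -0.30.

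Counted by library values alone, 6 of the 10 genes had both bleomycin libraries above both PBS libraries, 2 had both below (Myh11 and Myl9) and 2 overlapped (Cnn1 and Lmod1). Over all genes tested the same was true of 31.5% above and 35.0% below, so a lack of overlap with 2 libraries a group says little by itself.

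The bleomycin libraries differed from each other in some of these genes and not in others. Acta2, Actg2, Tagln, Tpm1 and Tpm2 were 1.3 to 1.86 times as high in bleomycin replicate 2 as in replicate 1. Of all genes tested, 6.95% were at least 1.3-fold higher in replicate 2. The other 5 genes stood at 0.924 to 1.08 times their replicate 1 value. These 5 and 5 were told apart after their values were seen. The genes that were higher in replicate 2 are the 4 that rose and Tagln, so the size of each rise depends on the library: for Acta2 the log2 change was 1.90 without bleomycin replicate 1 and 1.14 without replicate 2. For Actg2 the corresponding values were 1.82 and 0.96, and for Tagln 1.24 and 0.50.

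The ratio of the FPKM of 2 genes within a library does not depend on how that library was scaled. The ratio of Acta2 to Myh11 was 2.13 and 2.53 with PBS and 6.26 and 11.3 with bleomycin. That of Acta2 to Myl9, both abundant, was 0.463 and 0.415 with PBS and 1.12 and 1.75 with bleomycin, so the order of these genes turned over. The ratio of Tagln to Acta2 was 2.72 in both PBS libraries and 1.73 and 1.71 in the bleomycin libraries. Although Tagln and Acta2 each differed by about 1.7-fold between the bleomycin libraries, their ratio there was nearly the same. On the log2(FPKM + 1) scale, where the added 1 leaves a small dependence on scaling, 8 of 9 ratios of the other members to Myh11 were higher in both bleomycin libraries than in both PBS libraries. The same held for 56.6% of all other genes tested. Myh11, the shared denominator, was itself lower in both bleomycin libraries. The differences ran from 0.30 for Lmod1 to 1.82 for Acta2, with Cnn1 at 0.50 and Des at 0.63, and only that of Myl9, at 0.17, overlapped. A two-sided exact permutation test of 2 libraries against 2 cannot give a p below 0.333, which is what these 8 ratios gave (0.375 adjusted over the 9 ratios), and 0.667 for Myl9.

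**Figure D3:**
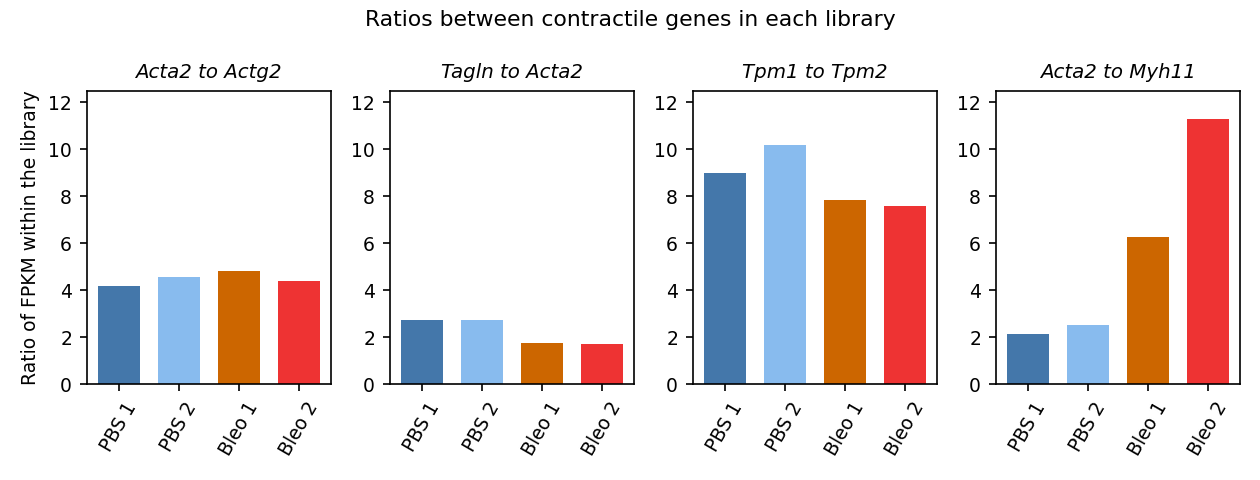
Ratios of FPKM between pairs of contractile genes in each library, 1 bar per library, all on the same axis from 0. Acta2 to Actg2 is near 4 to 5 throughout, Tagln to Acta2 is 2.72 with PBS and 1.73 and 1.71 with bleomycin, and Acta2 to Myh11 is 2.13 and 2.53 with PBS and 6.26 and 11.3 with bleomycin.

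Promoter sequences from RefSeq (GRCm38.p6), 250 bases before to 50 after the listed start, were matched for 7 of the 10 genes. Those of Actg2, Tagln and Myh11 were not matched. The stretches below are shown because Acta2, which rose, and Myl9, which did not pass, both carry boxes of the CArG kind. Each is 30 bases, 5′ to 3′ on the strand of the gene, with the match in capitals. The Acta2 stretches are at chr19:34255438-34255467 and chr19:34255388-34255417 on the minus strand, with boxes at bases -84 to -75 and -34 to -25 from the listed start. They lie inside the long first exon that GENCODE M21 gives Acta2 (34255290 to 34255590). They also lie inside the RefSeq span of Acta2, which reaches 34255585, so the listed start is not the outermost one of this gene. The Myl9 stretches are at chr2:156775293-156775322 and chr2:156775355-156775384 on the plus strand, with boxes at -161 to -152 and -99 to -90, outside annotated exons.
Acta2, distal: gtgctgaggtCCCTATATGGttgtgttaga
Acta2, proximal: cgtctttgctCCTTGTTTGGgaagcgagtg
Myl9, distal: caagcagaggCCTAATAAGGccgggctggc
Myl9, proximal: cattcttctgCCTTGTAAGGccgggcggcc

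The distal Myl9 box is a full CArG box, and the other 3 have 1 G or C within its A and T core. A full box was found in 1 of the 7 promoters and in 1.57% of 27025 mouse promoters of the same length, and a box with 1 G or C in the core in 2 of 7 and in 8.58%. The pattern was searched on both strands, which read alike for it. A shorter motif, GGAATG or its complement CATTCC, bound by TEAD factors and known as MCAT, was found in 3 of 7 and in 14.6% of all promoters. It is shown for the genes that carry it, Acta2 at -146 to -141 (chr19:34255502-34255531, minus strand, also in the first exon), Tpm1 at -56 to -51 (chr9:67049252-67049281, minus strand, within an annotated exon of 1 transcript and partly within those of 4 others) and Lmod1 at -130 to -125 (chr1:135324671-135324700, plus strand).
Acta2: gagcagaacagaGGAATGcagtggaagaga
Tpm1: tggctgtcctaaGGAATGcggtcgcccccc
Lmod1: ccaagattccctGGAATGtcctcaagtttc

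Of these, Acta2 and Tpm1 rose, and the log2 change of Lmod1 was -0.0042. The Tpm1 stretch, like those of Acta2, lies inside the RefSeq span of its gene, which reaches 67049672. The promoter windows of Tpm2, Cnn1 and Des held neither motif. No overlap was found between the MCAT and CArG matches.

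**Figure D4:**
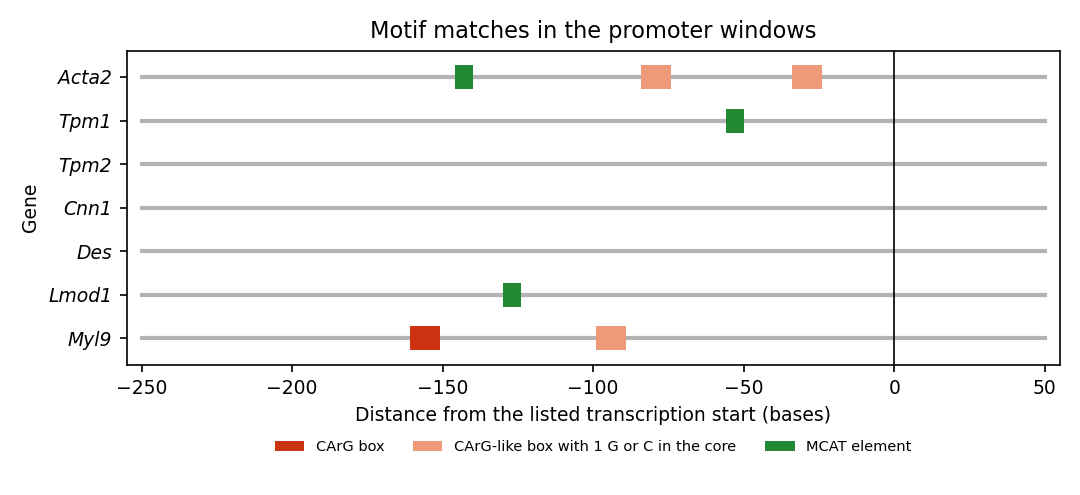
Positions of CArG boxes (red), CArG boxes with 1 G or C in the core (light red) and MCAT elements (green) in the 7 matched promoter windows, in bases from the listed start. Acta2 holds 3 matches, Myl9 2, Tpm1 and Lmod1 1 each, and Tpm2, Cnn1 and Des none.

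The rest of the contractile pathway was followed in 4 lists with 82 genes, of which 75 could be tested. Of these 15 rose, 7 fell and 53 did not pass, and their median log2 change was 0.12. Over all genes tested, 8.59% rose and 7.69% fell. Without a PBS library, 0 of them passed limma in either direction (at an unadjusted p under 0.05, 13 higher and 7 below without PBS replicate 1, 15 and 6 without PBS replicate 2), and without bleomycin replicate 1 the counts were 22 and 13, and without bleomycin replicate 2 they were 21 and 12. Over all genes, 18.0% rose and 24.2% fell without bleomycin replicate 1, 18.5% and 15.0% without bleomycin replicate 2, and 0 either way without a PBS library. Before adjustment, the fit lacking PBS replicate 1 placed 8.62% of all genes above and 7.75% below at that p, and the fit lacking PBS replicate 2 placed 8.8% above and 8.15% below.

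Of 22 other smooth muscle genes tested, 3 rose and 4 fell (median 0.10), beside 8.59% and 7.69% of all genes. Before adjustment, 4 of the 22 were higher and 8 lower at a p under 0.05 by limma, against 17.2% and 18.1% of all genes. The median was 0.07 without bleomycin replicate 1 and 0.08 without bleomycin replicate 2. Quantile and upper quartile scaling each gave 6 falls, where 1174 and 1057 of all genes fell, against 998 without rescaling. Ppp1r14a, which encodes the inhibitor of myosin phosphatase CPI-17, fell from 171.13 and 194.09 FPKM to 66.43 and 48.8 FPKM (log2 change -1.66 ± 0.17, adjusted p = 0.0102 by limma). The intermediate filament partner of desmin, synemin (Synm), fell from 17.51 and 16.82 FPKM to 5.5 and 5.19 FPKM. The integrin chain gene Itga8, found in smooth muscle and in alveolar fibroblasts, fell from 51.63 and 51.64 FPKM to 20.53 and 13.41 FPKM. Hspb7, a small heat shock protein of muscle, rose from 2.88 and 2.42 FPKM to 10.27 and 11.18 FPKM. Thus desmin and its partner synemin lay at log2 changes of 0.33 ± 0.09 and -1.52 ± 0.09. Mylk, the kinase of the light chain Myl9, was at 61.18 and 58.24 FPKM with PBS and at 45.39 and 52.95 FPKM with bleomycin (adjusted p = 0.136 by limma). Mylk was named after its values were seen, as were Cald1, Myocd, Srf, Actc1, Actb, Actg1 and, among the markers, Pdgfrb, Rgs4, Trpc6, Nog, Tnnc1 and Postn.

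Stress fibre and focal adhesion genes held the most rises, 9 of 21, with 1 fall (median 0.18), beside 8.59% and 7.69% of all genes. Actn1, the alpha-actinin that cross-links actin in stress fibres, rose from 55.34 and 54.11 FPKM to 114.13 and 143.71 FPKM (log2 change 1.21 ± 0.13, adjusted p = 0.0113 by limma). Itga5, the fibronectin receptor chain, rose from 19.09 and 19.32 FPKM to 39.61 and 40.58 FPKM. The filamin gene Flnc rose by 0.99 ± 0.13 on the log2 scale, from 0.8 and 0.88 FPKM to 2.67 and 2.64 FPKM. The tensin gene Tns1 fell from 271.5 and 282.38 FPKM to 121.14 and 142.28 FPKM. The actin-binding protein caldesmon (Cald1), of the smooth muscle list, rose from 57.31 and 54.03 FPKM to 85.27 and 102.27 FPKM.

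Of 15 tested genes of other actins, myosins, tropomyosins and related filament proteins, 0 rose by limma and 2 fell (median 0.11). By the same test, 8.59% of all genes rose and 7.69% fell. At an unadjusted p under 0.05, 5 were higher and 3 lower, against 17.2% and 18.1% of all genes. Those higher included the cytoplasmic actins Actb, at 934.56 and 1024.61 FPKM with PBS and at 1451.39 and 1494.15 FPKM with bleomycin (adjusted p = 0.0527 by limma), and Actg1, at 868.34 and 941.99 FPKM with PBS and at 1314.24 and 1249.59 FPKM with bleomycin (adjusted p = 0.0689 by limma). With quantile normalization, and with eBayes without a trend, 2 of these genes rose. The nonmuscle myosin heavy chain Myh10 fell from 43.08 and 42.32 FPKM to 22.59 and 28.28 FPKM, and the nonmuscle light chain Myl12b from 570.17 and 624.31 FPKM to 416.24 and 425.09 FPKM. Actb exceeded Acta2 by 20.6 and 23.3 times with PBS and by 14.5 and 8.85 times with bleomycin.

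Among 17 tested transcriptional regulators 3 rose and 0 fell by limma (median 0.13, 2 lower at an unadjusted p under 0.05). The shares of all genes were 8.59% and 7.69%, with 18.1% lower at that unadjusted p. Foxs1 rose from 1.7 and 0.86 FPKM to 3.46 and 5.37 FPKM, Fhl2, a cofactor of SRF, from 0.8 and 0.64 FPKM to 2.05 and 3.87 FPKM, and Smad3, which carries the TGF-beta signal, from 8.37 and 8.26 FPKM to 11.16 and 12.43 FPKM. With quantile normalization or a filter at 5 FPKM 1 regulator rose, and with no filter 0 did by limma (7 higher at an unadjusted p under 0.05). The median over the regulators was 0.2 without bleomycin replicate 1 and 0.13 without bleomycin replicate 2. Srf was at 18.37 and 18.96 FPKM with PBS and at 20.57 and 20.34 FPKM with bleomycin (adjusted p = 0.312 by limma). Myocd, the gene of myocardin, was too low to be tested, at 0.14 and 0.07 FPKM with PBS and at 0.36 and 0.47 FPKM with bleomycin.

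**Figure D5:**
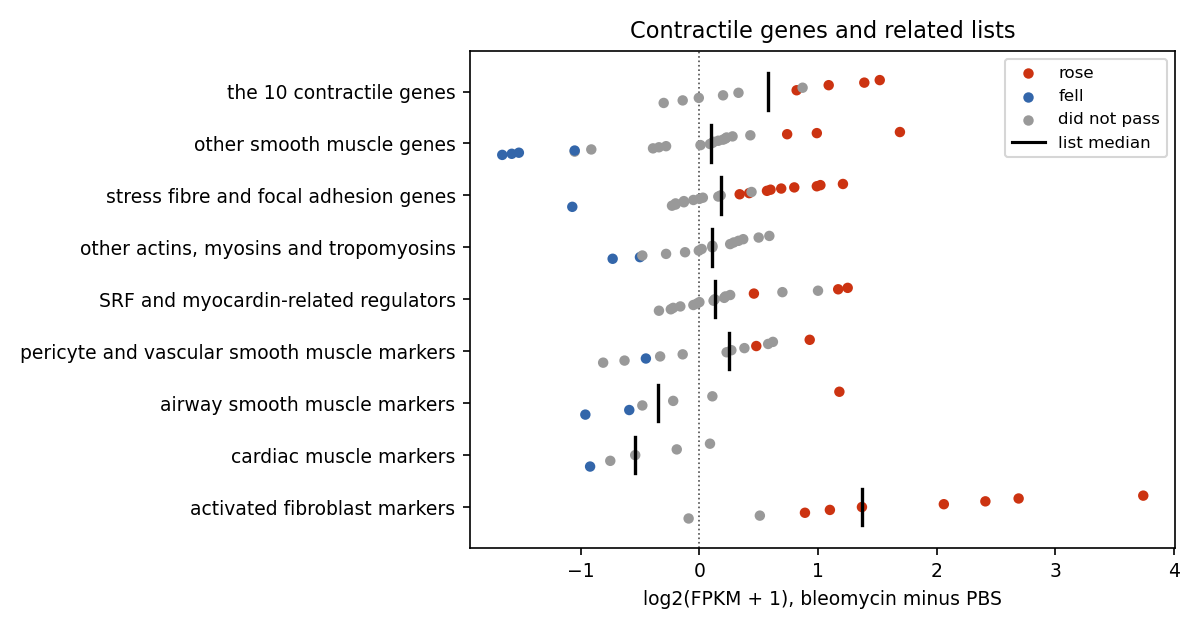
Log2 change with bleomycin of each tested gene (points) in the 10 contractile genes and in related and marker lists, with the median of each list as a black bar and red or blue for genes that rose or fell by limma. The 10 contractile genes have a median of 0.57, the other smooth muscle genes 0.10 and the activated fibroblast markers 1.37.

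Markers of cells that could carry these transcripts did not move as one. Of 9 tested markers of activated fibroblasts 7 rose and 0 fell by limma (median 1.37, 0 lower at an unadjusted p under 0.05), and their summed level went from 584 and 538 FPKM with PBS to 1470 and 1720 FPKM with bleomycin. Fn1, fibronectin, rose from 62.32 and 61.76 FPKM to 359.97 and 457.86 FPKM, and Col3a1 from 185.28 and 143.14 FPKM to 440.48 and 402.82 FPKM. Postn, of the same list, was at 195.18 and 211.52 FPKM with PBS and at 180.18 and 202.14 FPKM with bleomycin and did not pass. Of 12 markers of pericytes and vascular smooth muscle 2 rose (Pdgfrb and Rgs4) and 1 fell (Trpc6), beside 8.59% and 7.69% of all genes. Their median log2 change was 0.25, and it was -0.12 without bleomycin replicate 1 and 0.41 without bleomycin replicate 2. The sum was 367 and 381 FPKM with PBS and at 441 and 417 FPKM with bleomycin. The most abundant of these, Mcam and Cox4i2, had log2 changes of 0.58 ± 0.14 and -0.63 ± 0.21 that did not pass.

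Of 6 tested markers of airway smooth muscle 1 rose (Nog) and 2 fell, and the sum was 171 and 179 FPKM with PBS and at 126 and 105 FPKM with bleomycin. The falls were those of Foxf1, from 97.87 and 107.76 FPKM to 69.18 and 66.84 FPKM, and Enpp2, from 39.45 and 42.41 FPKM to 22.02 and 19.14 FPKM, genes that other lung cells express too. Actc1, the heart actin, which is also on that list, was at 23.86 and 21.1 FPKM with PBS and at 23.58 and 10.51 FPKM with bleomycin. Skeletal muscle markers were at most 2.61 FPKM in any library, with Tnnt3 and Tnni2 the highest, and 0 of 3 tested passed (by limma, 0 higher at an unadjusted p under 0.05 and 1 lower). By limma, 8.59% of all genes rose and 7.69% fell, and at that unadjusted p 17.2% were higher and 18.1% lower. Whether the lists of 6 and 3 tested markers differ from these shares was not tested. None of the marker lists held a gene at 0 in all 4 libraries. The part of any cell type in the rise of the actins and tropomyosins was not tested.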

How the data were processed

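Lung RNA of 2 PBS and 2 bleomycin libraries was analysed, grouped by sample title. Gene-level FPKM values in 1 table were deposited, per the file headers. The submitters' processing notes name Bowtie2, HISAT, mm10 and GRCm38. Their roles, versions, the quantifier and strand handling are not given in the sources used. A gene that takes many fragments lowers the FPKM of the others. Of 17692 rows, 1 without a gene name was left out (at most 0.0009% of a library's sum).

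The test was limma 3.58.1 (R 4.3.3) on log2(FPKM + 1) (eBayes with trend; prior degrees of freedom 2.76, residual 2) over the 12986 genes whose mean reached 1 FPKM, two-sided, adjusted over all of them. Fold changes on this scale understate those of low genes. The functions were tested on simulated data. Tables were made in Python 3.11.15 with pandas 2.3.3.

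Depth was estimated as the number of fragments at which most low FPKM values of single-transcript genes of 300 to 1000 bases lay within 0.15 of a whole fragment (75.0% to 78.1% of 148 to 202 values). It uses annotated lengths, and fragment numbers derived from it are estimates whose errors cover counting only. Gene positions are RefSeq, GRCm38.p6. Shared 50-base windows and overlapping exons come from GENCODE M21 (GRCm38).

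The 10 genes and the lists were chosen with earlier results of these data known. A further list of related genes is not reported here. Named genes are the 10 and up to 4 called genes of largest change per related list. Where fewer than 2 passed, the 2 most abundant are named, as are the 2 most abundant per marker list. Sftpc, Ager, Scgb1a1, Pcsk7, Eif2s3y and Alb were named outside this rule, and others are said to be chosen after their values were seen. Alternatives were pseudocounts of 0.1 and 0.5, no filter or 5 FPKM, quantile, TPM and upper quartile scaling, other variance models, a replicate block, and 1 library left out at a time.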

Additional observations from a re-analysis of the deposited data

How the results depend on the processing

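The count of 4 contractile genes that rose was 4 with pseudocounts of 0.1 and 0.5, a filter at 5 FPKM, quantile, TPM and upper quartile scaling and robust eBayes, 3 without a variance trend and 5 with array weights by group. With no filter, which adds 4705 genes to those tested, it was 1 (Tpm2), with adjusted p-values of 0.0568 for Acta2, 0.0829 for Actg2 and 0.0611 for Tpm1. Leaving out each library gave 0 to 6. No contractile gene fell under any of these settings. The related genes gave 15 rises and 7 falls, 9 rises with no filter, and 0 to 22 rises and 0 to 13 falls with each library left out. With a PBS library left out 0 of all 12986 genes passed limma (2127 and 2202 at an unadjusted p under 0.05), the spread rests on the bleomycin pair and the lone PBS library is assumed to vary like it.

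The labels give the same-numbered libraries a shared number and no other link. Their deviations from the group means had a correlation of 0.0231 across 12986 genes. This single value, from 2 libraries per group, cannot show whether they were paired. With the replicate block, 4 contractile genes rose (Acta2, Actg2, Tpm1 and Tpm2), and over all genes 842 rose and 799 fell, against 1116 and 998 without it. Of the regulators 0 rose by limma with the block (5 higher at an unadjusted p under 0.05).

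The sign of Lmod1 turned, with log2 changes of 0.02 with quantile normalization, 0.06 rescaled to TPM, 0.0093 with upper quartile scaling and -0.1 to 0.09 with each library left out, and an adjusted p of at least 0.79 in all of them. The other 9 genes kept their direction in every setting. No scaling moved the median change of all genes by over 0.1. Tagln passed with array weights by group, and Tagln and Des passed with either bleomycin library left out, where the spread rests on the PBS pair and 2341 and 2402 of all genes rose and 3144 and 1949 fell.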
